A study of Homo sapiens with 9 samples.

Results

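The genes described here are the peptidylarginine deiminases PADI1, PADI2 and PADI3 and 6 genes of the cornified envelope, which are TGM1, TGM2, IVL, SPRR1B, CSTA and CNFN. They were chosen by name from a list of 10, with earlier results of these data known. Of the 10, 9 stood among the 16366 genes of the deposited expression table. The tenth, SPRR3, was not analysed here. Of the 9 genes, 7 had enough reads to be tested, and IVL and SPRR1B did not.

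The libraries were made from Cal-27, a human tongue squamous carcinoma line that the labels give as wild type in every group. Every group was kept in DMEM with high glucose and fetal bovine serum. Control cells are labelled as the normal control. The other two groups were co-cultured for 48 h with exosomes, either hOMF exosomes or those of cancer-associated fibroblasts (CAF). The labels do not spell out hOMF. Each group had 3 libraries, sequenced from poly(A)-selected RNA. Nothing in the labels says that the 3 came from separate cultures, so the p-values measure the spread between these libraries, which may be technical. All results concern a single cell line.

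Peptidylarginine deiminases are calcium-dependent enzymes that convert arginine residues of proteins to citrulline, which removes a positive charge. In epidermis and hair follicle they act on keratins, filaggrin and trichohyalin as keratinocytes harden. The cornified envelope is the protein shell of the dead squamous cell. Transglutaminases build it by cross-linking glutamine and lysine residues of precursors such as involucrin (IVL) and the small proline-rich proteins (SPRR). Cystatin A (CSTA), a cysteine protease inhibitor, and cornifelin (CNFN) are built into it.

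Total expected counts per library ran from 11185672 to 12779101. In each library 3 counts, taken as the floor of detection, equalled 0.229 to 0.273 CPM, the count scaled to the library's total after TMM adjustment. These values cover counting error only. In a principal component analysis of all tested genes, the first component held 39.7% of the variance, with the control libraries at 18.8 to 29.8 and the exosome libraries at −16.6 to −8.38. Control replicate 3 stood farthest out at 29.8. It also had the lowest PADI1 value, so PADI1 is given below with and without it.

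The upstream sequences of PADI1, PADI2, IVL and SPRR1B are printed to set a gene that rose beside a neighbour and silent precursor genes. PADI1 had the largest fold changes, PADI2 is its neighbour in the same gene cluster and had smaller fold changes, and IVL and SPRR1B are squamous precursor genes that were almost silent. Each run is the 250 bases before the RefSeq transcription start in GRCh38.p14, 5′ to 3′ on the gene's own strand. They lie at chr1:17204878-17205127 on the plus strand for PADI1, chr1:17119452-17119701 on the minus strand for PADI2, chr1:152908296-152908545 on the plus strand for IVL and chr1:153030953-153031202 on the plus strand for SPRR1B. Capitals mark matches, on either strand, to the AP-1 motif TGANTCA, the GC box GGGCGG or the TATA box TATAAA. No match to the Grainyhead-like (GRHL) motif AACCNGTT was found in any of the 4 runs.
PADI1: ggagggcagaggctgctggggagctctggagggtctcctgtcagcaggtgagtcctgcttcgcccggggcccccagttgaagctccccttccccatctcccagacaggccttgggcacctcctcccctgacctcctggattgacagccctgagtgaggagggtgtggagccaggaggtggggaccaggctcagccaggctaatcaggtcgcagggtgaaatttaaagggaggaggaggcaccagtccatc
PADI2: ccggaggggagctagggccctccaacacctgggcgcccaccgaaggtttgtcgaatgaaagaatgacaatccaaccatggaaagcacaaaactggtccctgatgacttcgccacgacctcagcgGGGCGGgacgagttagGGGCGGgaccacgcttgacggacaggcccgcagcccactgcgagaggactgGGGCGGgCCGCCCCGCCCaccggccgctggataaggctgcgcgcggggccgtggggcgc
IVL: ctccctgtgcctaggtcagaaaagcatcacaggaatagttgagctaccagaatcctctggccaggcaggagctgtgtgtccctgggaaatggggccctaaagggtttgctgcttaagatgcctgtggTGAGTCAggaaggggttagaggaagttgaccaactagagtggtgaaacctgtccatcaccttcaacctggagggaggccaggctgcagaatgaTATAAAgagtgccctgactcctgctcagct
SPRR1B: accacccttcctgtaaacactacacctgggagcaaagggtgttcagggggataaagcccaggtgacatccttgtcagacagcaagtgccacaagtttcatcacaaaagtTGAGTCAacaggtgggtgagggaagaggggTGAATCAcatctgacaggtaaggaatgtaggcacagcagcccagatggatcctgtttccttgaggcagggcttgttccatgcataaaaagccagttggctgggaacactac
The IVL run held 1 AP-1 match, 123 bases before the start, and 1 TATA box at 30 bases. SPRR1B held 2 AP-1 matches, at 141 and 111 bases. PADI2 held 5 GC boxes, at 126, 110, 59, 52 and 47 bases before the start, of which those at 52 and 47 bases overlap. PADI1 held none of the 4 motifs. Among all 35116 RefSeq promoters of the same length, 6.57% held the AP-1 motif, 42.6% the GC box, 1.49% the GRHL motif and 10.7% the TATA box. The PADI1 run was 64.0% G and C and the PADI2 run 68.0%, against 53.2% for IVL, 50.8% for SPRR1B and a median of 58.0% over all promoters. A match is a run of letters and not a measured binding site. CNFN, which was called in no comparison, also had an entry, with 4 GC boxes in its 250 bases and 68.4% G and C. PADI3, TGM1, TGM2 and CSTA had no entry.

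Levels can be compared between genes only per length of transcript, as FPKM (fragments per kilobase of transcript, scaled for depth). Over the 9 libraries CSTA was the most abundant of the set, with a mean of 253.5 FPKM, higher than 97.9% of genes in the table. PADI3 followed at 105 FPKM, then TGM2 at 40.0 and CNFN at 18.0. PADI1 averaged 2.49 and PADI2 1.45 FPKM. SPRR1B stood at 0.734, TGM1 at 0.722 and IVL at 0.0156 FPKM. PADI3 and TGM2 were thus expressed far above their relatives PADI1, PADI2 and TGM1 in these cells. The ranges over libraries of SPRR1B and TGM1 overlapped, with 0 to 2.28 FPKM for SPRR1B and 0.53 to 0.90 for TGM1, and their order is not resolved.

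**Figure D1:**
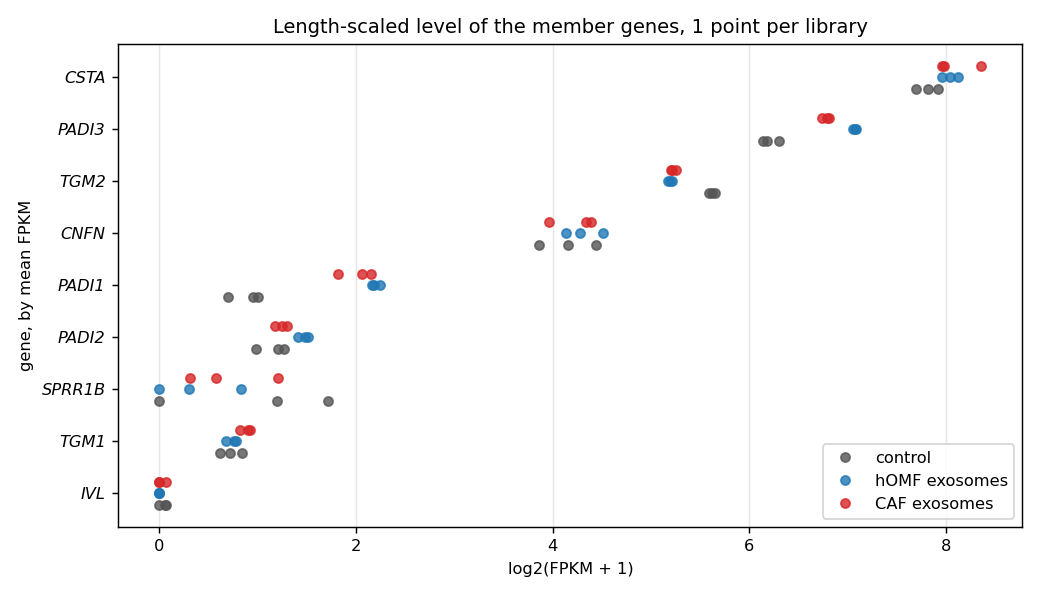
Level of the 9 genes as log2(FPKM + 1) in each of the 9 libraries, ordered by mean FPKM, with 1 point per library coloured by group. CSTA and PADI3 lie highest, and IVL lies at or near 0 in all 9 libraries.

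PADI1 was 4.0-fold higher with hOMF exosomes and 3.42-fold higher with CAF exosomes than in the control, and PADI3, the abundant form, rose 1.77-fold and 1.47-fold. PADI2 moved least and was called only with hOMF exosomes, at the edge of the threshold. TGM2, the widely expressed tissue transglutaminase, was 1.40-fold lower with hOMF and 1.35-fold lower with CAF exosomes. TGM1, CSTA and CNFN were not called, and IVL and SPRR1B had too few reads to test.

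A gene is counted as risen or fallen where edgeR's quasi-likelihood test gave a Benjamini-Hochberg adjusted p under 0.05 over the 12470 genes tested. With CAF exosomes, 2 of the 7 tested genes rose (PADI1, PADI3), 1 fell (TGM2) and 4 were not called. Of all tested genes, 18.2% were called in that comparison, with 9.51% higher and 8.64% lower. With hOMF exosomes, 3 of the 7 rose (PADI1, PADI2, PADI3), 1 fell (TGM2) and 3 were not called, against 23.2% of all genes called, 11.8% higher and 11.4% lower. The median log2 fold change of the 7 was 0.28 with CAF exosomes and 0.17 with hOMF exosomes, beside −0.01 and 0.00 over all tested genes. Because the genes were chosen with earlier results of these data known, the values over all genes are given for description only. Both comparisons use the same 3 control libraries, so their values are given side by side and not as independent of each other. At an unadjusted p under 0.05 the counts were 4 of 7 in each, beside 4094 of 12470 genes with CAF and 4575 of 12470 with hOMF exosomes. Genes with no overlap between the 2 groups numbered 4 of 7 in each comparison (3 above the control, 1 below), where 36.2% of all genes did not overlap for CAF exosomes (18.0% above, 18.2% below) and 39.5% for hOMF exosomes (20.2% above, 19.3% below).

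**Figure D2:**
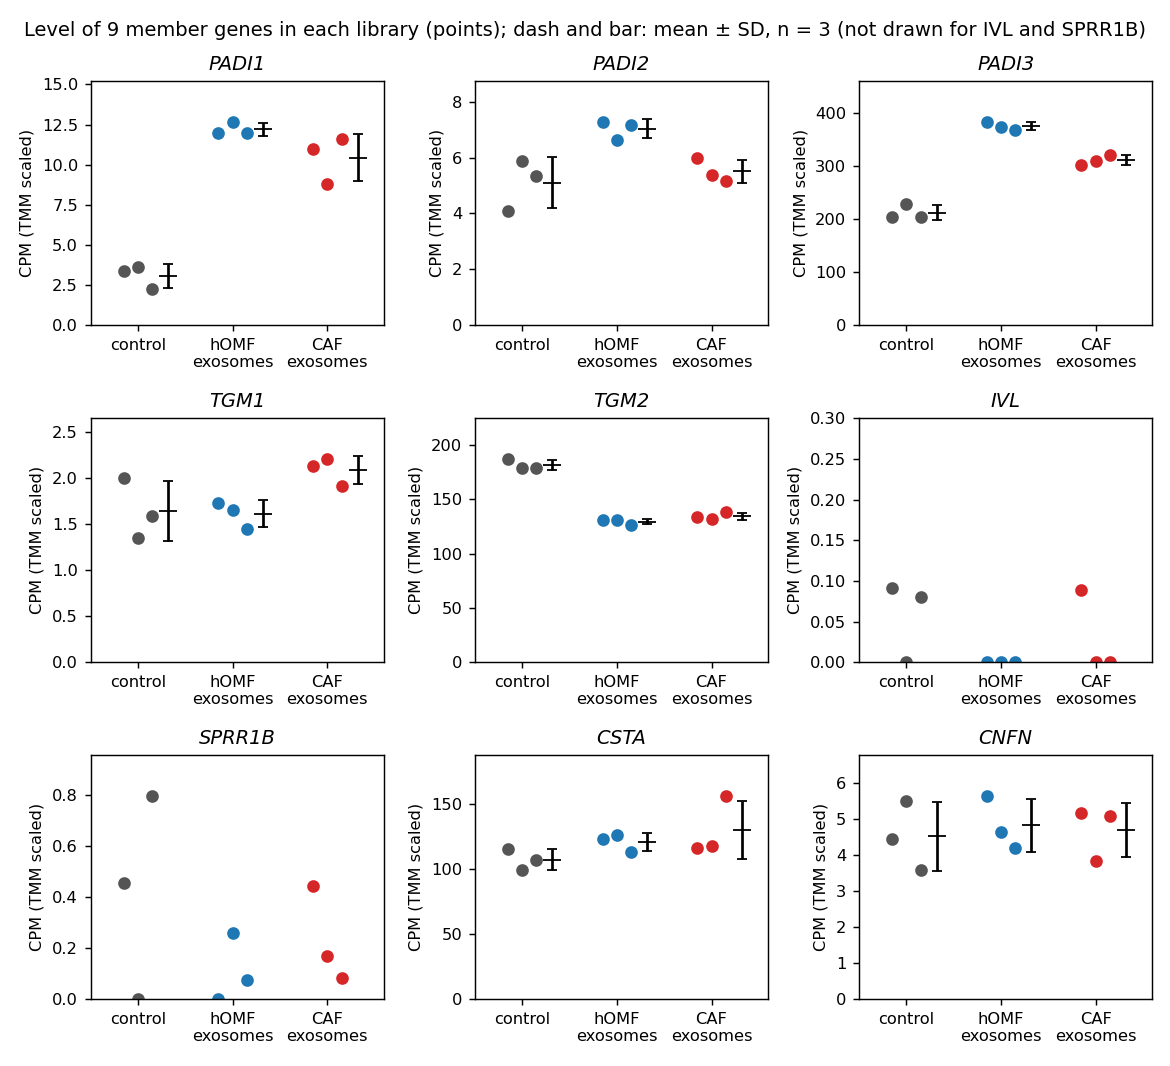
CPM of each of the 9 genes in every library by group, each panel on its own axis, with bars for the mean ± SD of 3 libraries (not drawn for IVL and SPRR1B). PADI1 and PADI3 lie above the control in all 6 exosome libraries and TGM2 lies below it.

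PADI1, a deiminase of the epidermis, lies on chromosome 1 at 17205126 to 17246005 on the plus strand (GRCh38, GENCODE 29, protein-coding). It measured 3.36, 3.61 and 2.23 CPM in control replicates 1, 2 and 3. The hOMF exosome libraries gave 12.0, 12.7 and 12.0 CPM, and the CAF exosome libraries 10.97, 8.77 and 11.6 CPM. Every exosome library exceeded every control library, and the lowest of the 6 was CAF replicate 2. Means were 3.07 ± 0.735 in the control, 12.2 ± 0.400 with hOMF exosomes and 10.4 ± 1.49 with CAF exosomes (SD, n = 3). The log2 fold change against control was 2.00 with hOMF exosomes (SE 0.17, 95% interval 1.63 to 2.37, edgeR adjusted p = 4.14e-06), rank 11 of all genes by p-value. For CAF exosomes it was 1.78 (SE 0.18, interval 1.40 to 2.15, edgeR adjusted p = 2.08e-05), rank 15 by p-value. These values rest on 28 to 157 counts per library. Without control replicate 3 the log2 fold changes were 1.80 and 1.58, both still called. On the log2(FPKM + 1) scale, which understates changes of low genes, limma gave 1.31 and 1.12, also called.

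PADI3, which is known for its role in the hair follicle, lies next to PADI1 at 17249098 to 17284233 on the plus strand. Control libraries gave 204, 229 and 204 CPM for it. With hOMF exosomes it measured 384, 375 and 369 CPM, and with CAF exosomes 302, 310 and 322 CPM. The groups formed separate steps, with the control lowest, CAF exosomes between and hOMF exosomes highest, and no library crossed into another group's range. Means were 212 ± 14.2, 311 ± 9.92 and 376 ± 7.50 CPM in that order (SD, n = 3). The log2 fold change was 0.82 with hOMF exosomes (SE 0.07, interval 0.68 to 0.97, edgeR adjusted p = 3.40e-06), rank 7 of all genes by p-value. For CAF exosomes it was 0.55 (SE 0.07, interval 0.41 to 0.70, edgeR adjusted p = 0.000124), rank 53. Its counts ran from 2240 to 4825 per library, and the call stood in all 19 alternative settings for each comparison.

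PADI2, the most widely expressed deiminase, lies at 17066761 to 17119435 on the minus strand. It gave 4.09, 5.87 and 5.34 CPM in the control, 7.29, 6.65 and 7.18 with hOMF exosomes and 5.98, 5.36 and 5.17 with CAF exosomes. The hOMF libraries lay above all control libraries, while the CAF libraries overlapped them. The log2 fold change with hOMF exosomes was 0.46 (SE 0.16, interval 0.12 to 0.81, edgeR adjusted p = 0.0494). That call did not stand in 13 of 19 alternatives, whose adjusted p ran from 0.0187 to 0.165 over all 19. It was lost on leaving out any single library other than control replicate 2, and DESeq2 gave an adjusted p of 0.122. With CAF exosomes the log2 fold change was 0.11 (SE 0.17, edgeR adjusted p = 0.697).

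Summed over the 3 genes, deiminase mRNA stood at 75.1 ± 4.46 FPKM in the control, 113 ± 2.63 with CAF exosomes and 139 ± 1.85 with hOMF exosomes (SD, n = 3). PADI3 made up 97.2%, 96.1% and 96.1% of these sums, so the sum follows PADI3. The ratio of PADI3 to PADI1 in FPKM was 74.1, 76.9 and 115.6 in the control libraries, 33.5, 43.3 and 32.3 with CAF exosomes and 38.9, 35.9 and 37.1 with hOMF exosomes. PADI1 therefore gained more, in proportion, than PADI3 in both exosome groups, and no exosome library reached the control range.

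TGM2, a transglutaminase found in many tissues and bound to matrix and cell surface as well as the cytosol, lies on chromosome 20 at 38127387 to 38166578 on the minus strand. Control libraries gave 187, 179 and 179 CPM. It measured 131, 131 and 127 CPM with hOMF exosomes and 134, 132 and 138 CPM with CAF exosomes. All 6 exosome libraries lay below the 3 controls, and the exosome groups were close to each other. Means were 182 ± 4.90, 129 ± 2.48 and 135 ± 3.35 CPM (SD, n = 3). The log2 fold change was −0.49 with hOMF exosomes (SE 0.06, interval −0.62 to −0.35, edgeR adjusted p = 9.07e-05), a 1.40-fold lower level. With CAF exosomes it was −0.43 (SE 0.06, interval −0.57 to −0.30, edgeR adjusted p = 0.000372), 1.35-fold lower. In both comparisons the call stood in all 19 alternatives. A stretch of 394 exon bases, 4.90% of the gene's exon length, overlaps RPRD1B on the opposite strand. No source used here says whether reads were counted by strand. The expected counts of TGM2 were whole numbers in all 9 libraries. RPRD1B itself had log2 fold changes of −0.06 in both comparisons (edgeR adjusted p = 0.643 with hOMF and 0.638 with CAF exosomes).

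TGM1, the keratinocyte transglutaminase that anchors envelope precursors at the membrane, lies on chromosome 14 at 24249114 to 24264432 on the minus strand. It gave 2.00, 1.36 and 1.60 CPM in the control, 1.73, 1.66 and 1.45 with hOMF exosomes and 2.14, 2.21 and 1.92 with CAF exosomes, from 15 to 26 counts per library. The CAF libraries lay above the hOMF libraries but overlapped the control. Log2 fold changes were −0.03 with hOMF exosomes (SE 0.27, edgeR adjusted p = 0.946) and 0.34 with CAF exosomes (SE 0.26, edgeR adjusted p = 0.374). The sign of the hOMF value turned in 5 alternatives. At these counts the fold with CAF exosomes had a 95% interval of 0.869 to 1.84, so a change of moderate size was not detectable.

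Involucrin, encoded by IVL on chromosome 1 at 152908545 to 152911886, is the classical early precursor of the envelope. Its 9 libraries held 3 counts in all, 1 in each of control replicates 1 and 3 and CAF replicate 1, and 6 libraries stood at 0. SPRR1B, at 153031202 to 153032900 on the same chromosome, encodes a small proline-rich cross-bridging protein. It had 5, 0 and 10 counts in the control, 0, 3 and 1 with hOMF exosomes and 5, 2 and 1 with CAF exosomes. The control libraries alone spanned the whole range of SPRR1B. Neither gene passed the filter on low counts, and no fold is given. SPRR1B shares much of its sequence with other SPRR genes, between which the counting could split reads. The expected counts of SPRR1B were whole numbers in all 9 libraries, and splitting was not tested.

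CSTA, which inhibits cysteine cathepsins and is cross-linked into the envelope, lies on chromosome 3 at 122325244 to 122341972. It measured 116, 99.3 and 107 CPM in the control, 123, 127 and 113 with hOMF exosomes and 116, 118 and 156 with CAF exosomes. CAF replicate 3 stood well above the other CAF libraries, which lay just above the highest control. The log2 fold change with CAF exosomes was 0.28 (SE 0.10, interval 0.06 to 0.49, edgeR adjusted p = 0.0683) and was not called. Without CAF replicate 3 it was 0.14 with an adjusted p of 0.339, while without CAF replicate 1 or 2 the adjusted p was 0.0393 or 0.0383. Scaling by library totals without TMM factors gave 0.0451. With hOMF exosomes the log2 fold change was 0.17 (SE 0.10, edgeR adjusted p = 0.236).

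CNFN lies on chromosome 19 at 42387019 to 42390287. Its values were 4.45, 5.51 and 3.59 CPM in the control, 5.64, 4.63 and 4.20 with hOMF exosomes and 5.17, 3.83 and 5.09 with CAF exosomes. The 3 groups overlapped fully. Log2 fold changes were 0.10 with hOMF exosomes (SE 0.20, edgeR adjusted p = 0.769) and 0.06 with CAF exosomes (SE 0.21, edgeR adjusted p = 0.863).

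**Figure D3:**
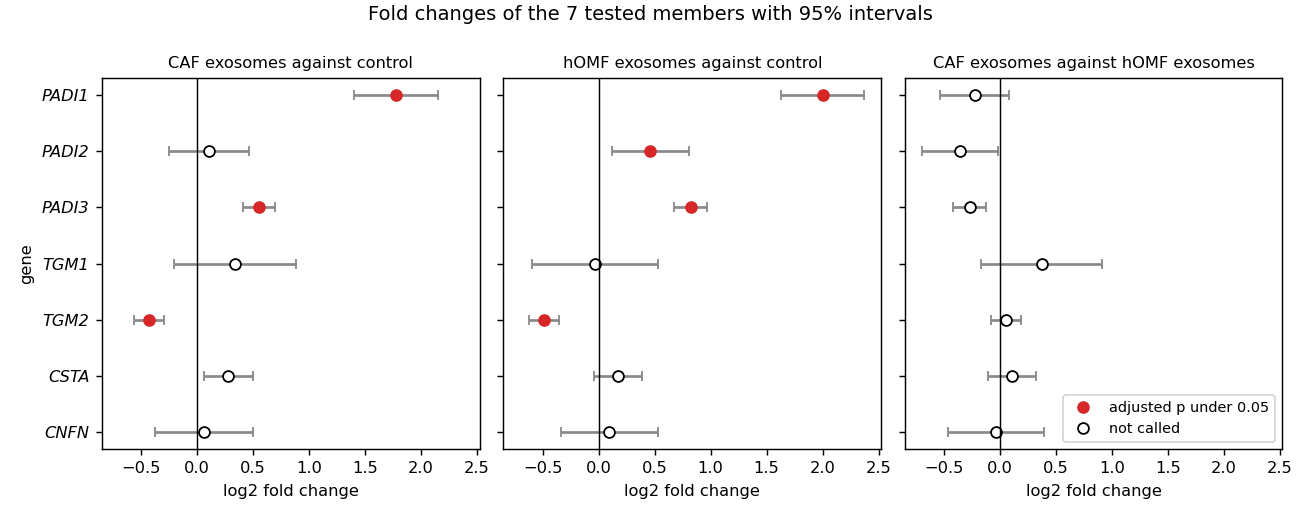
Log2 fold change of the 7 tested genes in the 3 comparisons with 95% intervals, red where the edgeR adjusted p was under 0.05. PADI1 and PADI3 lie above 0 and TGM2 below 0 in both comparisons with the control, and no gene is red between the exosome groups.

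Between CAF and hOMF exosomes edgeR called 0 of the 7 genes, where 0.016% of all genes were called, 2 of 12470 (0.00802% higher, 0.00802% lower). At an unadjusted p under 0.05 there were 2 of the 7, PADI2 and PADI3, beside 947 of 12470 genes. DESeq2 called 1 (PADI3), and limma on log2(FPKM + 1) called 0. DESeq2 gave no adjusted p for some of the low genes, which are left out of that count. The libraries of the 2 groups did not overlap for 5 of the 7, with TGM1 and TGM2 higher and PADI1, PADI2 and PADI3 lower in the CAF group. Over all genes 13.7% did not overlap (7.15% higher, 6.59% lower).

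PADI3 was the nearest to a difference, with a log2 fold change of CAF over hOMF exosomes of −0.27 (SE 0.07, interval −0.42 to −0.13). Its p-value was 0.00105, rank 46 of 12470, which gave an adjusted p of 0.285 with edgeR and 0.0266 with DESeq2. For PADI2 the value was −0.36 (SE 0.16, interval −0.70 to −0.02, edgeR adjusted p = 0.624), and for PADI1 −0.23 (SE 0.14, interval −0.53 to 0.08, edgeR adjusted p = 0.778). TGM2 gave 0.06 (SE 0.06, edgeR adjusted p = 0.897), a fold of 1.04 with an interval of 0.947 to 1.14. TGM1 gave 0.37 (SE 0.26, edgeR adjusted p = 0.806), CSTA 0.11 (SE 0.10, edgeR adjusted p = 0.872) and CNFN −0.04 (SE 0.20, edgeR adjusted p = 0.985). The median of the 7 was −0.04, beside −0.00 over all genes.

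**Figure D4:**
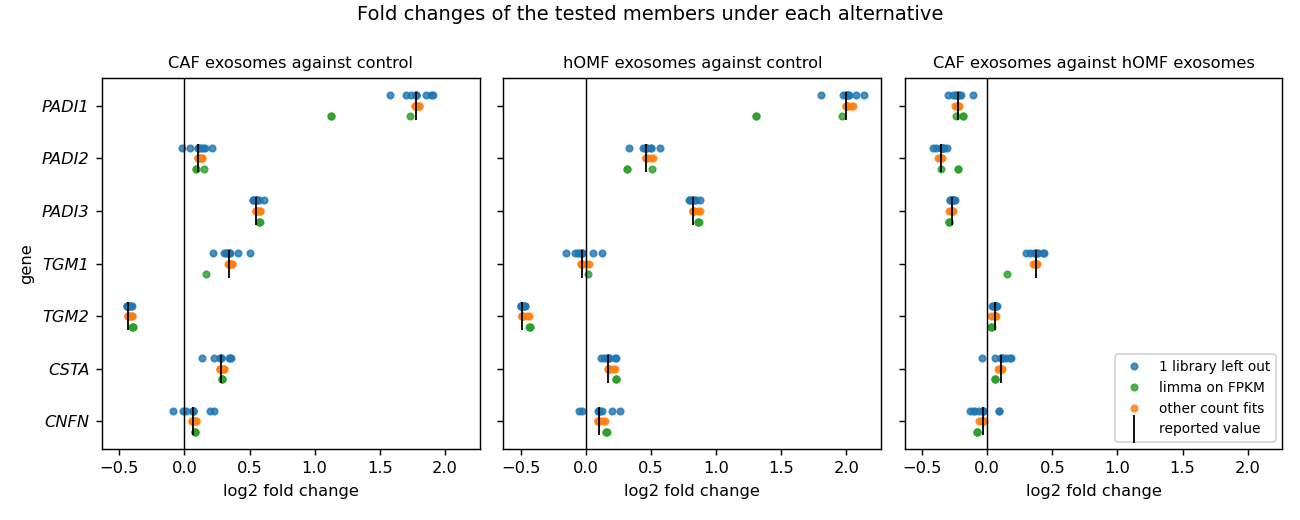
Log2 fold change of each tested gene in the 3 comparisons, with a black line for the reported value and 1 point per alternative (blue for 1 library left out, green for limma on FPKM, orange for other count fits). The points of PADI1, PADI3 and TGM2 stay on one side of 0 within each comparison, and those of CNFN straddle 0 in all 3.

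The deiminase genes sit together on chromosome 1, in the order PADI2, PADI1, PADI3, PADI4 and PADI6, from 17066761 to 17401699. PADI4, the deiminase of granulocytes, averaged under 1 FPKM and had log2 fold changes of 0.56 with hOMF exosomes (SE 0.36, edgeR adjusted p = 0.274) and −0.31 with CAF exosomes (SE 0.40, edgeR adjusted p = 0.631). PADI6, the deiminase of the egg, did not pass the filter. The other 6 protein-coding genes within 250 kb were looked at after the values of the deiminases had been seen. With CAF exosomes 0 of the 6 were called, where 18.2% of all genes were, with a median log2 fold change of 0.18. With hOMF exosomes 2 of 6 rose, where 11.8% of all genes did, CROCC by 0.70 (SE 0.14, edgeR adjusted p = 0.00194) and ARHGEF10L by 0.29 (SE 0.08, edgeR adjusted p = 0.0140), and the median was 0.19. The ARHGEF10L call was lost without hOMF replicate 2. MFAP2, not called in either comparison, had log2 fold changes of 0.65 with CAF exosomes (SE 0.24, edgeR adjusted p = 0.0751) and 0.63 with hOMF exosomes (SE 0.24, edgeR adjusted p = 0.0703). With CAF exosomes the values of MFAP2, CROCC (0.38), ARHGEF10L (0.21) and ATP13A2 (0.14) were larger than that of PADI2 (0.11). With hOMF exosomes those of MFAP2 and CROCC were larger than that of PADI2. The value of MFAP2 with CAF exosomes was larger than that of PADI3, while PADI1 had the largest value of the region in both comparisons.

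For each called gene, up to 3 other genes with the most similar profile over the 9 libraries are given by Pearson's r of log2 CPM, out of 11332 genes with a mean of at least 1 FPKM. The 9 points fall into a control and an exosome cluster and share library depth, so r is a description only. PADI1 was most like TTC14 (r = 0.991), SLC25A27 (0.991) and FGFR2 (0.989). PADI3 was most like SLC16A5 (0.985), TSC22D3 (0.982) and DDIT4 (0.980). TSC22D3, a gene that glucocorticoids induce, had the stepwise order seen in PADI3, with log2 fold changes of 1.32 with hOMF exosomes (SE 0.08, edgeR adjusted p = 3.04e-07) and 0.87 with CAF exosomes (SE 0.09, edgeR adjusted p = 2.08e-05). PADI2 was most like TMX3 (0.940), JMJD7 (0.926) and RASD2 (0.925). Near to TGM2 were CAVIN1 (0.990), a caveolar coat protein, and TPM4 (0.984), a tropomyosin, and both fell in both comparisons. CAVIN1 changed by −0.48 with hOMF and −0.44 with CAF exosomes on the log2 scale (SE 0.06 each, edgeR adjusted p = 0.000115 and 0.000368).

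Of 47 further envelope precursor and keratohyalin genes, 26 were in the table, 17 of these averaged under 1 FPKM and 9 were tested. Those under 1 FPKM included filaggrin (FLG) and every SPRR2 and late cornified envelope (LCE) gene of the list that was in the table. With CAF exosomes 1 of the 9 rose and 0 fell, against 18.2% of all genes called. That gene was LY6D, a squamous surface protein, from 151 to 185 CPM (log2 fold change 0.30, SE 0.08, edgeR adjusted p = 0.0200), and the call was lost without CAF replicate 2 or without control replicate 3, where the count was 0 and 2. With hOMF exosomes 1 rose and 2 fell, against 23.2% of all genes called, and without hOMF replicate 2 the count was 1. SCEL (sciellin, an envelope precursor) rose by 0.56 (SE 0.11, edgeR adjusted p = 0.00186). S100A11, the most abundant of the list at 2036 FPKM, had a log2 fold change of −0.29 (SE 0.07, edgeR adjusted p = 0.0109), lost without hOMF replicate 2 or control replicate 2. SPRR1A went from 1.32 to 0.555 CPM (log2 fold change −1.24, SE 0.35, edgeR adjusted p = 0.0190), lost without hOMF replicate 2 or 3 or control replicate 1 or 3, and it shares near-identical sequence with SPRR1B. The list's median was −0.01 with CAF and −0.00 with hOMF exosomes. Of 9 other deiminase and transglutaminase genes, 4 were in the table, all under 1 FPKM with TGM5 the most abundant. Of these, 2 were tested and 0 were called by edgeR or DESeq2 in either comparison with the control, with 0 at an unadjusted p under 0.05.

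Among 34 proteases and inhibitors of desquamation, the shedding of cornified cells, 30 were in the table and 20 were tested. With CAF exosomes 3 rose and 2 fell, where 18.2% of all genes were called. Without CAF replicate 2 or CAF replicate 3 that total was 3. SERPINB13, a cathepsin inhibitor, rose by 0.90 (SE 0.17, edgeR adjusted p = 0.00261), CTSL, a cathepsin, by 0.37 (SE 0.08, edgeR adjusted p = 0.00462) and PRSS8, a membrane-anchored protease, by 0.26 (SE 0.07, edgeR adjusted p = 0.0216). SERPINB8 fell by 0.71 (SE 0.12, edgeR adjusted p = 0.000965). The PRSS8 call was lost without CAF replicate 2 or 3 or control replicate 3. With hOMF exosomes 5 rose and 4 fell, where 23.2% of all genes were called. Leaving out hOMF replicate 2, hOMF replicate 3, control replicate 2 or control replicate 3 left 4, 5, 4 and 5 calls. SERPINB8 fell by 0.75 (edgeR adjusted p = 0.000418), SERPINB4 by 0.66 (SE 0.16, edgeR adjusted p = 0.00837) and the protease ST14 by 0.29 (SE 0.08, edgeR adjusted p = 0.0128), while PRSS8 rose by 0.29 (edgeR adjusted p = 0.0101). The ST14 call was lost without hOMF replicate 2 or 3 or control replicate 2. The most abundant gene of the list was CSTB, cystatin B, at 1931 FPKM, with a log2 fold change of −0.21 with CAF exosomes (edgeR adjusted p = 0.0743). With hOMF exosomes CSTB was among the 4 that fell, from 673 to 574 CPM, and its call did not stand in 12 of 19 alternatives. The list's medians were 0.01 and −0.09.

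The barrier lipid list had 22 genes, of which 18 were in the table and 13 were tested. With CAF exosomes 0 rose and 2 fell, where 9.51% of all genes rose and 8.64% fell, among them the steroid sulfatase STS by 0.58 (SE 0.10, edgeR adjusted p = 0.000843). With hOMF exosomes, where 11.8% of all genes rose and 11.4% fell, 1 of the 13 rose and 5 fell, among them SLC27A4, a fatty acid transporter, by 0.52 (SE 0.10, edgeR adjusted p = 0.00142), the lipase cofactor ABHD5 by 0.45 (SE 0.10, edgeR adjusted p = 0.00577) and STS by 0.41 (edgeR adjusted p = 0.00624). Medians were −0.01 in both. ELOVL1, a fatty acid elongase and the most abundant at 122 FPKM, had log2 fold changes of 0.05 and −0.09 (edgeR adjusted p = 0.654 with CAF and 0.363 with hOMF exosomes).

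Of 32 regulators of keratinocyte differentiation, 31 were in the table and 29 were tested. With CAF exosomes 2 rose and 6 fell, where 9.51% of all genes rose and 8.64% fell. The AP-1 subunits FOSL1, FOSL2 and JUN fell by 0.69 (SE 0.12, edgeR adjusted p = 0.00131), 0.46 (SE 0.09, edgeR adjusted p = 0.00209) and 0.57 (SE 0.12, edgeR adjusted p = 0.00446), and the receptor gene NOTCH1 rose by 0.30 (SE 0.08, edgeR adjusted p = 0.0137). The NOTCH1 call was lost without CAF replicate 3. The count of 8 became 5, 3, 5 and 5 without CAF replicate 1, CAF replicate 3, control replicate 2 and control replicate 3. With hOMF exosomes 2 rose and 8 fell, where 11.8% of all genes rose and 11.4% fell, and without hOMF replicate 1 the total was 5. FOSL1 fell by 0.83 (edgeR adjusted p = 0.000208), FOSL2 by 0.50 (edgeR adjusted p = 0.000762) and JUN by 0.53 (edgeR adjusted p = 0.00495), and GRHL2 rose by 0.32 (SE 0.08, edgeR adjusted p = 0.00679). JUNB, the most abundant at 221 FPKM, was not called, with values of −0.23 and −0.12 (edgeR adjusted p = 0.273 with CAF and 0.597 with hOMF exosomes). The list's median was −0.20 with CAF and −0.12 with hOMF exosomes, and no gene of the 5 lists was called between the exosome groups.

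**Figure D5:**
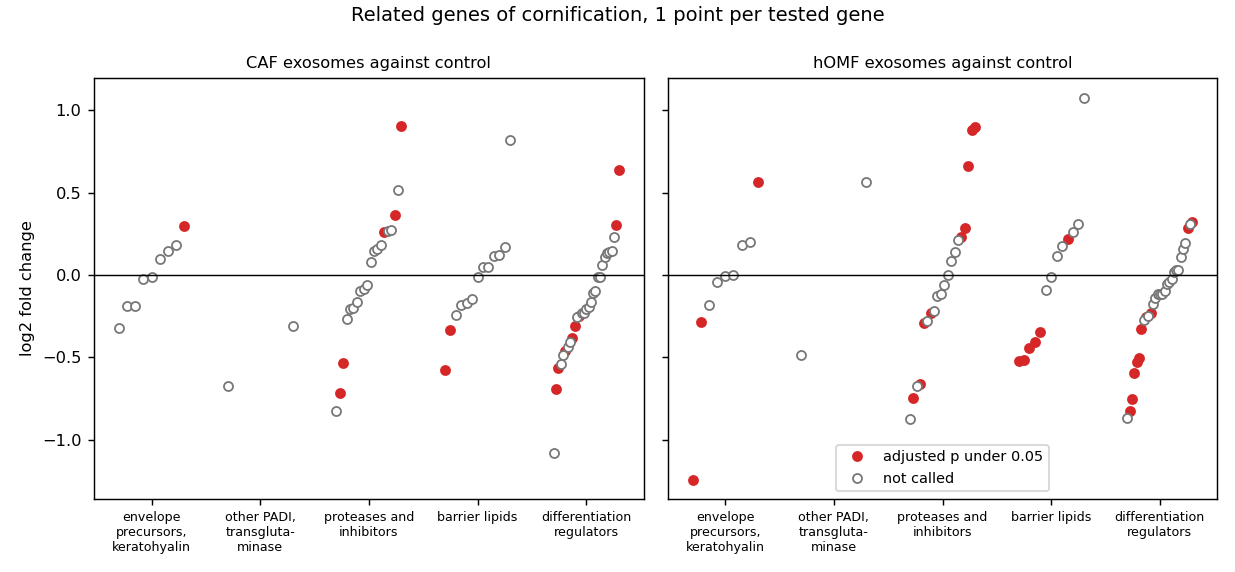
Log2 fold change against control of each tested gene in the 5 lists of related genes, for CAF and hOMF exosomes, with called genes marked. The 2 tested genes of the other deiminase and transglutaminase list are open points, and more of the called regulators lie below 0 than above it.

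The squamous identity of the cells was checked on 10 marker genes, all in the table and all above 1 FPKM on average. Their summed level was 3020 to 3863 FPKM in the control, 3655 to 4326 with hOMF exosomes and 4303 to 4519 with CAF exosomes. With CAF exosomes 4 of the 10 rose and 0 fell, where 9.51% of all genes rose, and with hOMF exosomes 2 rose and 0 fell, where 11.8% of all genes rose. The basal keratin KRT5 was called in all 19 alternatives of both comparisons. KRT14 was called in all 19 with CAF exosomes and lost its call with hOMF exosomes without CAF replicate 3, hOMF replicate 1 or 2, or control replicate 2 or 3. With CAF exosomes, KRT6A was lost without CAF replicate 3 or control replicate 1, and KRT17 without CAF replicate 2 or 3 or control replicate 2 or 3. Of the 13 fibroblast markers, 12 were in the table and 8 of them averaged under 1 FPKM, among them COL1A2, COL3A1, DCN, PDGFRB and FAP. Their summed level was 37.1 to 44.1 FPKM in the control, 46.5 to 52.2 with hOMF exosomes and 45.8 to 50.5 with CAF exosomes, and 2 of 7 tested, LUM and ACTA2, rose in both comparisons. COL5A1, which was not called, made up most of that sum, with means of 27.5, 30.7 and 30.9 FPKM in the same order. ACTA2 lost its call with CAF exosomes without CAF replicate 2, control replicate 1 or control replicate 2, and LUM with hOMF exosomes without hOMF replicate 2. Leukocyte markers summed to 29.7 to 45.2, 29.6 to 33.5 and 31.3 to 34.1 FPKM in the control, hOMF and CAF groups. CD68 was the largest part of that sum, with means of 21.9, 22.8 and 23.7 FPKM in the same order. CD14 had means of 4.75, 6.43 and 6.17 FPKM, and neither gene was called against the control. Within the control, PTPRC ran from 0 to 7.50 CPM, CORO1A from 3.27 to 17.1 and LYZ from 0.0909 to 2.87. These highest values were those of control replicate 3. Of the 4 tested, 1 fell with CAF exosomes (CORO1A) and 2 fell with hOMF exosomes (CORO1A, ITGAM), with 0 risen in either. The CORO1A call was lost without CAF replicate 1, CAF replicate 3 or control replicate 3 in the first comparison and without hOMF replicate 2, hOMF replicate 3 or control replicate 3 in the second. Endothelial markers summed to 5.33 to 7.70 FPKM in the control, 4.45 to 5.22 with hOMF exosomes and 4.17 to 4.91 with CAF exosomes. Of the 3 tested, CDH5 fell in both comparisons and in all 19 alternatives of each, from 24.0 CPM to 15.2 with hOMF and 14.9 with CAF exosomes. PECAM1 and VWF were not called. PECAM1 averaged 1.60, 1.06 and 0.768 CPM in the control, hOMF and CAF groups. VWF went the other way, with 1.67, 2.69 and 2.75 CPM. The fibroblast sums of both exosome groups lay above the control, as PADI1 and PADI3 did. The endothelial sums, which were mostly CDH5, lay below the control, as TGM2 did, while VWF lay above it on average. The squamous sum reached its highest value with CAF exosomes, but its ranges in the CAF and hOMF groups overlapped. The hOMF range also overlapped the control. KRT17 was the largest part of the squamous sum, with means of 1801, 2173 and 2440 FPKM in the control, hOMF and CAF groups. PADI1 and PADI3 had their highest means with hOMF exosomes, but edgeR called neither between the exosome groups. The part of these markers in the results was not tested. In bulk libraries a change in the share of cells that express a gene and a change in RNA per cell cannot be told apart.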

How the data were processed

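Gene-level values for 9 libraries of Cal-27 cells (3 groups of 3) came from one deposited table. Per the submitters' processing notes, reads were aligned with Bowtie2 2.2.5 and quantified with RSEM 1.2.8. Those notes name a mouse genome build, although the table's gene symbols are human; the annotation and strand setting of the counting were stated nowhere in the labels. The authors deposited RSEM expected counts, FPKM and TPM per library. Between 90.5% and 92.0% of expected counts were whole (tolerance 0.001). They were rounded for testing; deposited FPKM served for levels, and deposited TPM was not used.

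Genes were kept by filterByExpr (minimum count 10, minimum total 15), which left 12470, and tested with edgeR 4.0.16 (glmQLFit and glmQLFTest, two-sided, TMM factors, group-only design over 9 libraries with 6 residual degrees of freedom, R 4.3.3) with Benjamini-Hochberg adjustment over all tested genes. The code was tested on simulated data. CPM values use TMM-scaled library totals. Alternatives used DESeq2 1.42.0 and limma 3.58.1. No replicate pair agreed within sampling noise (chi-square per degree of freedom 3.14 to 11.4).

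The genes described, the related lists and the marker lists were chosen with earlier results of these data known. From each related list the text names up to 4 called genes with the smallest p-values in each comparison and the most abundant gene by mean FPKM. For each called gene it names the 3 most correlated other genes. A few genes that these rules select are not reported here. Motifs were searched in RefSeq promoters (GRCh38.p14), and gene positions come from GENCODE 29.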

Additional observations from a re-analysis of the deposited data

How the results depend on the processing

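Each value was recomputed under 19 alternatives: DESeq2, 3 limma fits on FPKM, 3 other scalings, no filter, the 6 libraries compared alone, a replicate block, and each library left out. PADI1, PADI3 and TGM2 kept direction and call against control in all 19. Genes called with CAF exosomes numbered 2264, and 1343 to 2389 when 1 library was left out (1343 without CAF replicate 3, 1389 without control replicate 2, 1442 without control replicate 3). With hOMF exosomes the count was 2896, and 1695 to 3096 (1695 without hOMF replicate 2). Between the exosome groups it was 2, against 36 with DESeq2, 0 in each of the 3 limma fits, 0 without TMM factors, 0 with 6 libraries and 0 to 8 with 1 library left out. DESeq2 called 1 of the 7 genes there (PADI3) and edgeR 0.

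Same-numbered replicates did not deviate together (correlations −0.154 to 0.140), so the numbers are not taken as pairs. With the replicate block, genes called numbered 2101, 2718 and 2, and of the 7 genes 3, 3 and 0; PADI2 with hOMF exosomes was then not called (0.46, adjusted p = 0.0675).

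Calls above the control made up 52.4% of all calls with CAF and 50.9% with hOMF exosomes. The shares were 63.1% and 67.0% without TMM factors, 62.4% and 61.7% with upper quartile factors, and 65.2% and 69.1%, 67.1% and 69.6%, and 65.5% and 69.2% in the limma fits with pseudocount 1, with 0.1 and without filter.

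Uncalled values turned sign as follows, on the log2 scale. With CAF exosomes against control and 1 library left out, PADI2 ran from −0.020 (without control replicate 1) to 0.21, and CNFN from −0.086 (without control replicate 3) to 0.23. With hOMF exosomes, TGM1 was 0.014 in limma without filter, 0.020 without TMM factors and 0.0018 with upper quartile factors, and ran from −0.15 to 0.12 (without control replicate 1) with 1 library left out. CNFN ran from −0.051 (without control replicate 3) to 0.26. Between exosome groups, CSTA ran from −0.040 (without CAF replicate 3) to 0.18 and CNFN from −0.13 to 0.092 (without CAF replicate 2). The cause of these changes was not tested. TGM1 lay below the FPKM filter of 2 limma fits and has no value there. Counts of 15 to 26 per library limit TGM1, and IVL and SPRR1B had too few counts for any test. For the lists, regulators called with CAF exosomes numbered 8, against 5 in both filtered limma fits and 3 in the unfiltered one. With hOMF exosomes the unfiltered limma fit called 4 regulators and 5 proteases and inhibitors, where edgeR had called 10 and 9.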
